A study of Drosophila melanogaster with 2 samples.

Results

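The regions described here are CAA repeat runs of the fly genome at which CG4360, a zinc finger protein, had no peak summit. A run was a stretch of at least 12 bases that repeats CAA in any frame on either strand, which holds at least 4 units. Perfect runs within 100 bp of each other were joined, so 3672 perfect runs on arms 2L, 2R, 3L, 3R, 4 and X gave 3357 joined runs. Of these, 2155 had no summit of the conservative peak list within 100 bp and form the runs without a summit, which is 64.2% of all joined runs (exact Clopper-Pearson 95% interval 62.5 to 65.8). The other 1202 had one and serve as the comparison. The conservative list, as the authors named it, was made from both replicates, and a summit is the deposited position of highest signal in a call. The summits chose the regions, so the share without a summit is a description and carries no test.

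The samples were whole Drosophila melanogaster embryos of 0 to 24 h from flies that carry CG4360 fused to enhanced green fluorescent protein (eGFP), precipitated with an antibody against GFP. There was 1 group with 2 biological replicates and no second genotype or treatment, and the control experiment that the labels point to was not analysed here. The sources used here do not say which promoter drives the fusion or how many copies the flies carry. Whole embryos mix all cell types and stages of embryogenesis, so a run bound in few cells cannot be told apart from a weakly bound one.

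CAA runs are microsatellites, short tandem repeats that gain and lose units when the polymerase slips during replication. Read in its 3 frames, the repeat codes for glutamine (CAA), asparagine (AAC) or threonine (ACA), and fly proteins are rich in such tracts. Proteins with C2H2 zinc fingers read DNA a few bases per finger, and several fingers in a row can read a long motif. Which copies of a short repeated word a factor occupies is known to depend on the neighbouring sequence and on whether the chromatin is open.

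The background differed by kind of call. Of all bases of the 6 arms, 0.854% lay within 100 bp of a conservative summit, against 35.8% of the joined runs. Each peak list was deposited in a second form, which ranks all calls, also those that failed the threshold on the irreproducible discovery rate (IDR, the expected share of calls that do not repeat between data sets). Of the same bases, 19.0% lay within 100 bp of a conservative ranked call, 13.5% within 100 bp of a replicate 1 ranked call and 13.2% within 100 bp of a replicate 2 ranked call.

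A set of 5 long intronic runs without a summit, of 32 to 35 bases, is shown because their repeats are longer than those of most runs with a summit. Coordinates are dm6, from the RefSeq release 6 assembly, and each sequence reads 5′ to 3′ along the strand that carries CAA, with the perfect run in capitals and 10 flanking bases on each side in lower case.
Rim, chr3R:17889517-17889571, minus strand, intron: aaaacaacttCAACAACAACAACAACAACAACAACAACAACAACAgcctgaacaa
eIF4EHP, chr3R:24074981-24075034, plus strand, intron: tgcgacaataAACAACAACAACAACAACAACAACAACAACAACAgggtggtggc
T48, chr3R:26897661-26897713, plus strand, intron: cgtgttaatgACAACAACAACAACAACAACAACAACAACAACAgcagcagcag
CG42594, chrX:4903656-4903707, plus strand, intron: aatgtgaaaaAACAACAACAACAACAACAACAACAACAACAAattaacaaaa
Zdhhc8, chrX:9336586-9336637, plus strand, intron: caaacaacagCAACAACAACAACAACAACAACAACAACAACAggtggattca

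The next set had no ranked call within 100 bp in any of the 4 lists, with 28 to 30 bases of perfect repeat. The nearest conservative summit was 137 bp from the Hr4 run, 304 bp from sr and 70177 bp from CARPA.
sr, chr3R:18130550-18130626, plus strand, coding sequence, 2 joined runs: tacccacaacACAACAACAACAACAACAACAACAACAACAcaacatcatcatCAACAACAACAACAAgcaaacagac
CARPA, chrX:7810846-7810894, minus strand, intergenic: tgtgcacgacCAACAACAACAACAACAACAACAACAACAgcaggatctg
Hr4, chrX:1947920-1947967, minus strand, intron: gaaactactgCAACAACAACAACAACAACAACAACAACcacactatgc

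For comparison, 4 of the 5 longest runs with a summit are shown.
CHES-1-like, chrX:7689036-7689120, minus strand, coding sequence: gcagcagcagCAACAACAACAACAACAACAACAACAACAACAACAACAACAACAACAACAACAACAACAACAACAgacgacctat
Ptip, chr3L:14027710-14027782, minus strand, coding sequence: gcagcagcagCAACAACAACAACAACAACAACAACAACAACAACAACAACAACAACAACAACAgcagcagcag
CHES-1-like, chrX:7702538-7702609, plus strand, intron: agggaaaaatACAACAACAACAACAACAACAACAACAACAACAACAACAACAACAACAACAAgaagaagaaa
pum, chr3R:9144166-9144229, plus strand, intron: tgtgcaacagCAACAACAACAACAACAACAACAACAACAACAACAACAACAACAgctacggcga

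Most runs without a summit were short. The longest perfect stretch was 12 bases in 723 of the 2155 runs, or 33.6%, against 289 of the 1202 runs with a summit, or 24.0%. Their median length was 13 bases (10th to 90th percentile 12 to 19), against 14 bases (12 to 21) with a summit. A single perfect run made up 2054 of the 2155, or 95.3%, while 86.8% of the runs with a summit were single. Only 4 of the 2155 held the repeat on both strands.

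The share without a summit was highest in the shortest bin and close to 50% in the longest ones. It was 69.1% (67.1 to 71.1) of the 2156 runs of 12 to 14 bases and 57.3% (53.3 to 61.1) of the 634 runs of 15 to 17 bases. Runs of 18 to 20 bases had 55.6% (49.9 to 61.2), and runs of 21 to 23 bases had 50% (41.5 to 58.5). The 80 runs of 24 to 29 bases had 52.5% (41.0 to 63.8). Among the 34 runs of 30 or more bases, 16 had no summit, which is 47.1% (29.8 to 64.9). The intervals of the 4 longest bins overlap one another, and a further fall beyond 18 bases was not tested. Length was tested in a logistic model of a summit over all 3357 runs, with 12 terms and standard errors clustered in 1078 windows of 100 kb. The odds of a summit were 2.59 times higher per doubling of length (95% interval 1.99 to 3.37, adjusted p = 2.88e-12, n = 3357 runs). In a model of runs of 5 or more units, joined anew, the ratio was 1.78 (1.15 to 2.77, adjusted p = 0.0168, n = 1183 runs). That model left out the term for flanks in repeated DNA and its runs, and 1183 of 1202 such runs were fitted.

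**Figure D1:**
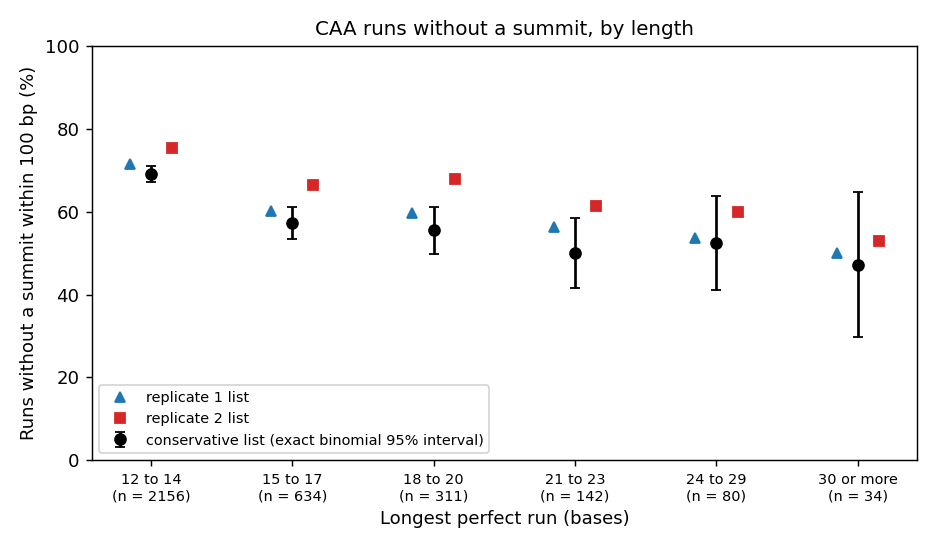
Share of joined CAA runs with no summit within 100 bp, in percent, by length of the longest perfect run in bases. Circles show the conservative list with exact binomial 95% intervals, triangles the replicate 1 list and squares the replicate 2 list; in the conservative list the share is 69.1% at 12 to 14 bases, 52.5% at 24 to 29 and 47.1% at 30 or more.

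The individual replicate lists gave higher shares without a summit, 66.9% in replicate 1 and 71.8% in replicate 2. They also held fewer thresholded calls, 4519 in replicate 1 and 3682 in replicate 2, against 5697 in the conservative list. Both lists placed the shortest runs highest. The odds ratio per doubling of length was 2.40 (1.86 to 3.10) with the replicate 1 list and 2.32 (1.76 to 3.06) with the replicate 2 list. Of the 2155 runs, 2071 also lacked a summit in the replicate 1 thresholded list and 2130 lacked one in the replicate 2 list. No summit in any of the 4 thresholded lists was found for 2011 of them, or 93.3% (92.2 to 94.3).

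Further repeat around the longest run went with a summit as well. Flanking repeat bases were those within 50 bp of the longest run that lie in 6-base matches to the repeat on the same strand. They include bases of other perfect runs in that window, so imperfect repeat was not tested apart from these. A flank with none was found around 1176 of the runs without a summit, and 70.1% (67.9 to 72.3) of all runs with such flanks had no summit. Of the 216 runs with 24 or more flanking repeat bases, 98 had no summit, or 45.4% (38.6 to 52.3). The odds of a summit were 1.5 times higher per 10 flanking repeat bases (1.36 to 1.66, adjusted p = 8.42e-16, n = 3357 runs). Taking length and flanks together, 73.5% of 1184 runs of 4 units with no repeat in the flanks had no summit, against 50.7% of 708 runs of 5 or more units with some. Of 215 joined pairs of runs, 85 had no summit (39.5%), and of 45 joined groups of 3 or more, 16 had none (35.6%), though a wider group also covers more bases.

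Words that mix CAG into the repeat were counted in the run and the 50 bp around it, as the word CAGCAA, the word CAACAG or the word CAGCAG on the same strand. Such a word lay at 51.7% of the runs without a summit and at 65.2% of those with one. The odds of a summit were 1.26 times higher beside such a word (1.06 to 1.48, adjusted p = 0.00937, n = 3357 runs). The T48 run shown above ends in CAG units and had no conservative summit, as did 1115 of the 1899 runs with a CAG word, so the word was common on both sides.

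The base composition of the flanks separated the groups further. Median GC content of the flanking 100 bp on each side was 43.5% around runs without a summit (10th to 90th percentile 33.0 to 55.0) and 46.5% around runs with one (38.5 to 55.5). In flanks of under 35% GC, 290 of 319 runs had no summit, or 90.9% (87.2 to 93.8). The share was lowest at 45 to 50% GC, with 446 of 807 runs or 55.3% (51.8 to 58.7), and 59.1% (55.8 to 62.3) at 50% or more. The odds of a summit were 1.95 times higher per 10 points of GC (1.73 to 2.19, adjusted p = 2.60e-27, n = 3357 runs). GC content can also move the recovery of sequenced fragments, and its part in this difference was not tested.

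The share without a summit also differed by gene position. Runs within 500 bp of a transcript start, called promoter runs, had no summit in 223 of 558 cases, or 39.96% (35.9 to 44.2). In introns 826 of 1237 runs had none, or 66.8% (64.1 to 69.4), and between genes 461 of 638, or 72.3% (68.6 to 75.7). Coding sequence gave 380 of 537, or 70.8% (66.7 to 74.6), 5′ UTRs 76 of 151, or 50.3% (42.1 to 58.6), and 3′ UTRs 176 of 217, or 81.1% (75.3 to 86.1). Against introns and with the sequence terms in the model, the odds of a summit were 3.16 times higher in promoters (2.51 to 3.97, adjusted p = 4.95e-22, n = 3357 runs). They were 0.445 times those of introns in 3′ UTRs (0.299 to 0.662, adjusted p = 0.000109, n = 3357 runs). The 5′ UTR and intergenic differences were small and close to the threshold, at 1.47 (1.02 to 2.13, adjusted p = 0.0443, n = 3357 runs) and 0.752 (0.576 to 0.981, adjusted p = 0.0431, n = 3357 runs).

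**Figure D2:**
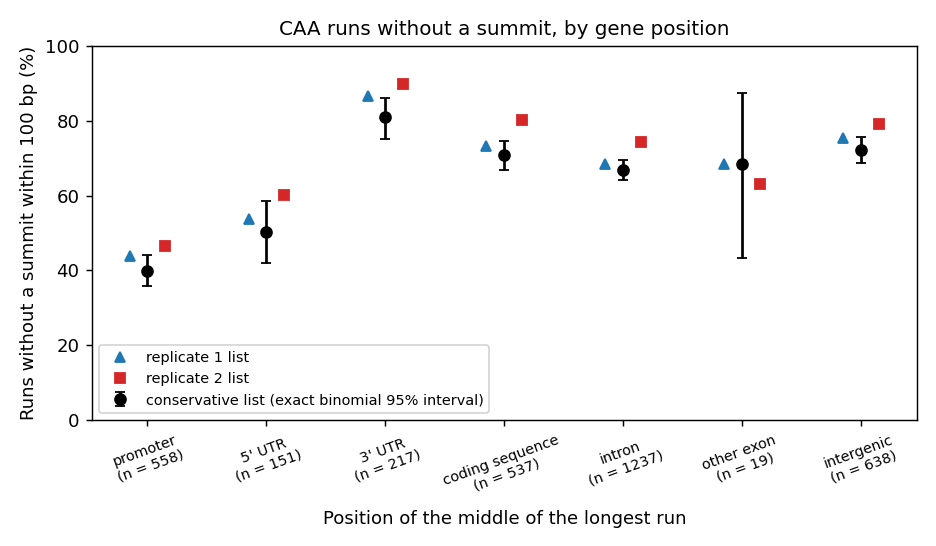
Share of joined CAA runs with no summit within 100 bp, in percent, by position of the middle of the longest run. Circles are the conservative list with exact binomial 95% intervals, triangles replicate 1 and squares replicate 2; promoters lie lowest at 39.96% and 3′ UTRs highest at 81.1% in the conservative list.

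Coding runs need their base composition beside them. Flanks in coding sequence without a summit had a mean GC content of 52.5% ± 7.32 (SD, 380 runs), against 42.1% ± 6.40 (826 runs) in introns without one. With GC and the other terms in the model, the odds of a summit in coding sequence were 0.327 times those in introns (0.248 to 0.430, adjusted p = 5.24e-15, n = 3357 runs). With only the position classes in the model, the ratio was 0.830 (0.658 to 1.05, adjusted p = 0.141, n = 3357 runs) and did not pass the threshold. The coding difference passed the threshold in the model with these terms and not without them.

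In coding sequence the frame fixes the amino acid, and no frame was free of runs without a summit. Counting every run that overlaps coding sequence, also those near a start, 460 of 697 had no summit. Asparagine tracts had none in 257 of 372 cases, or 69.1% (64.1 to 73.7). Glutamine tracts had none in 61.5% of 187 cases (54.1 to 68.5), and threonine tracts in 84 of 130, or 64.6% (55.8 to 72.8). The 3 intervals overlap. The 62-base run of CG42674, without a summit and classed as 5′ UTR, also overlaps coding sequence, in the asparagine frame. Among runs of the coding sequence class, the longest without a summit lay in pyr, which encodes a fibroblast growth factor ligand, with 32 bases. Next came Nelf-A, a subunit of the negative elongation factor, with 31, and sr, an EGR-type transcription factor of tendon cells, with 30. CG46307 had 28 and Atf3, a bZIP transcription factor, had 27. They show that a summit was missing from coding repeats longer than most occupied ones, and 2 of them are printed here for their length.
Nelf-A, chr3R:21225871-21225921, plus strand: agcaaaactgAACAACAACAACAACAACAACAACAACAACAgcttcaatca
Atf3, chrX:1247092-1247138, minus strand: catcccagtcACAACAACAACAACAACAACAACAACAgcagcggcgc

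At the Atf3 run the strongest ranked call had a signal of 42.1 in replicate 1, where it passed the threshold, and 17.4 in replicate 2, where it did not. The Nelf-A run had 26.5 and 14.96, both under the threshold. The run in CG46307 had a call only in replicate 2, at 60.5, which passed there. So 2 of these 5 coding runs passed in 1 replicate and none in both.

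The strand of the repeat was compared in introns of 1 strand. Of 558 runs with CAA on the transcript strand, 390 had no summit, or 69.9% (65.9 to 73.7), against 414 of 648 with TTG on it, or 63.9% (60.1 to 67.6). The odds of a summit with CAA on the transcript strand were 0.773 times those with TTG (0.591 to 1.01, p = 0.0585, n = 1206 runs, 1 test), which did not pass. The interval reaches from a 0.591-fold ratio to none, so equality is not shown either.

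**Figure D3:**
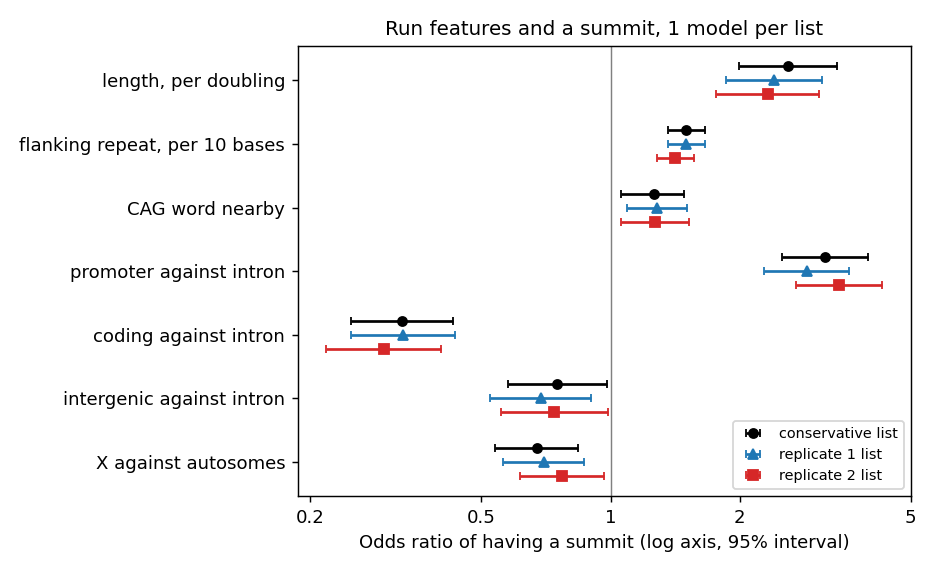
Odds ratios of having a summit, on a log axis, with 95% intervals clustered by 100 kb windows, for run and position features. Circles use the conservative list, triangles the replicate 1 list and squares the replicate 2 list; the ratio per doubling of length is 2.59, 2.40 and 2.32 and that of promoters 3.16, 2.86 and 3.40.

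Other short words around the runs were searched on both strands within 100 bp, with the bases of the run left out. Of 12 motifs, 5 passed, or 41.7%, each in a model with length, flanking repeat, CAG word, GC and promoter. GAGAGAG, the word bound by GAGA factor, lay at 5.42% of all runs, namely 3.02% of those without a summit and 9.73% of those with one (odds ratio of a summit 3.78, 2.68 to 5.33, adjusted p = 4.80e-13, n = 3357 runs). CACACAC lay at 13.6% of all runs, 10.4% without and 19.1% with a summit (2.02, 1.60 to 2.53, adjusted p = 1.11e-08, n = 3357 runs). AGATAAG, a word bound by factors such as serpent, lay at 18 runs without and 22 runs with a summit (2.45, 1.28 to 4.69, adjusted p = 0.0201, n = 3357 runs), which is 1.19% of all runs. CAGCAGC, which overlaps the CAG words already in the model, lay at 25.7% of all runs, 21.2% without and 33.9% with a summit (1.35, 1.11 to 1.63, adjusted p = 0.00821, n = 3357 runs). Of the words that passed, TATAAAA was the one found more often without a summit, at 9.10% against 4.08% and 7.30% of all (0.652, 0.464 to 0.918, adjusted p = 0.0344, n = 3357 runs). A match is a description of letters and not of a bound site. The other 7 words did not pass (adjusted p = 0.107 to 0.974, n = 3357 runs) and lay at 0.447% to 13.8% of all runs. They were the E box CAGCTG, the E box variant CACGTG, the Zelda word CAGGTAG, the DREF word TATCGATA, the A tract AAAAAAAA, the Pho word GCCATNNT and the CTCF word AGGTGGCG. A p that misses the threshold does not show that these words were equally frequent.

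Runs in repeated DNA were almost all without a summit. Flanks were called repeated where under 50% of the 31-base words within 100 bp occur once in the genome. Of 167 such runs, 166 had no summit, or 99.4% (96.7 to 99.98), so the odds ratio of 0.0122 (0.00254 to 0.0587, adjusted p = 7.72e-08, n = 3357 runs) rests on 1 run with a summit. Only 16 of the 167 had a ranked call in any of the 4 lists. Of the 166, 59 lay in an annotated transposable element and 92 on chromosome 4 or within 4 Mb of a centromere end. Reads from repeated sequence may not place at 1 site, and the part of this in the missing calls was not tested. Without the repeated runs, 62.4% of the rest had no summit and the ratios per doubling of length and of promoters kept their side of the threshold.

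Runs without a summit were frequent near the centromeres. All 13 runs on chromosome 4 lacked a summit, as did 71 of 75 within 2 Mb of a centromere end (94.7%, 86.9 to 98.5) and 122 of 148 at 2 to 4 Mb (82.4%, 75.3 to 88.2). At 4 to 6 Mb the share was 63.4% (56.6 to 69.9), and beyond 6 Mb 62.4% (60.6 to 64.1). A total of 1747 of the 2155 runs, or 81.1%, lay beyond 6 Mb, off chromosome 4 and outside repeated flanks. By arm the share was 60.2% on 2L, 58.4% on 2R, 58.1% on 3L, 70.7% on 3R and 68.3% on X. The odds of a summit on X were 0.673 times those on the autosomes (0.539 to 0.841, adjusted p = 0.000753, n = 3357 runs). The ratio was 0.699 with the replicate 1 list and 0.772 with the replicate 2 list.

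A difference between the lists as used here bears on arm 3R. The conservative ranked list held 178 calls that passed the IDR threshold but are not in the copy of the thresholded list used here, whose completeness is not known, and 27 of the 2155 runs lie within 100 bp of one, 23 of them on 3R and 4 on 2L. Counting those as summits, 67.5% (63.9 to 70.9) of the 3R runs had none, and 63.4% (61.7 to 65.0) of all runs.

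The strongest 8 calls at runs without a summit were all of this kind, so these 8 are absent by list and not by signal. Alh, which encodes a chromatin protein of the AF10 type, had 2 of them in its promoter, with signals of 1449.7 and 1027.8 in the conservative ranked list. The first had 831.8 in replicate 1 and 690.2 in replicate 2, and the second 547.5 and 550.1. The others lay at corto, a partner of Polycomb and trithorax group proteins, with 932.5, crp, a bHLH factor, with 917.4, Bacc with 582.0, and tara, a cell cycle and chromatin regulator, with 569.6, 435.0 and 395.3. These 8 runs were only 12 to 14 bases long, and 2 are shown to set their short repeats beside the long ones above.
Alh, chr3R:7108497-7108528, minus strand, promoter: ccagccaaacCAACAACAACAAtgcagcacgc
tara, chr3R:16254222-16254255, minus strand, intron: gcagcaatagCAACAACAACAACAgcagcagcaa

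Ranked calls that did not pass were common at runs without a summit. The signal is the authors' own value for each call, on a scale that no label states, and is compared only within a list. Counting all ranked calls, also the 27 above, a conservative one lay within 100 bp of 988 of the 2155, or 45.8% (43.7 to 48.0), against 19.0% of bases. Replicate 1 had a ranked call at 953 (44.2%) and replicate 2 at 801 (37.2%), and 573 (26.6%) had one in both. These calls were weaker than those with a summit. Their median signal in the conservative ranked list was 34.7 (quartiles 21.4 and 48.5), against 187.2 (103.4 and 369.5) at runs with a summit and 19.2 over all ranked calls. In replicate 1 the medians were 20.3 and 106.2, against 12.2 over all its ranked calls, and in replicate 2 they were 18.9 and 81.4, against 13.8. The signal chose the groups through the IDR, so these medians are a description.

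**Figure D4:**
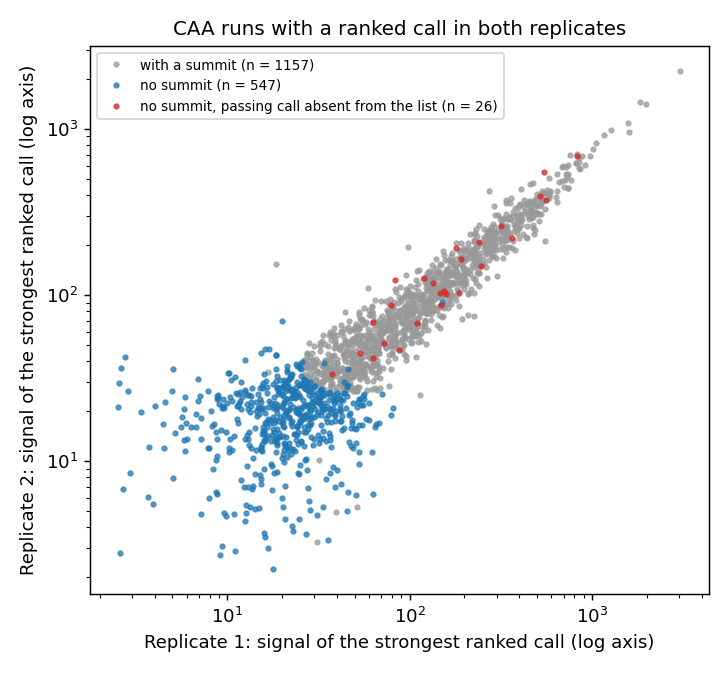
Signal of the strongest ranked call within 100 bp in replicate 1 (horizontal) and replicate 2 (vertical), both on log axes, for CAA runs with a ranked call in both replicates. Grey points are 1157 runs with a summit, blue points 547 runs without one, and red points 26 runs without one whose call passed the threshold but is absent from the thresholded list; blue points lie mostly at low signal in both replicates and red points lie among the grey.

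The share of runs without a summit that had a conservative ranked call was higher in the longer bins. It was 40.7% (38.2 to 43.2) at 12 to 14 bases, 52.1% (46.8 to 57.3) at 15 to 17, 60.1% (52.4 to 67.5) at 18 to 20 and 69.0% (60.3 to 76.8) at 21 or more. By position it was 44.4% in promoters, 45.3% in introns, 41.9% between genes, 40.3% in 3′ UTRs and 54.2% (49.1 to 59.3) in coding sequence.

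The longest run without a summit shows the range of these weak calls. It lay in the 5′ UTR of CG42674 (chr3L:20192027-20192088), with 62 bases, 20 whole units and signals of 32.1 in replicate 1 and 24.5 in replicate 2. Its IDR in the conservative ranked list had a −log10 of 1.71, where the threshold is 2, and the nearest conservative summit was 2843 bp away. The run of Rim, a scaffold of the presynaptic active zone, had 35 bases, signals of 38.3 and 23.4 and a −log10 IDR of 1.60. That of eIF4EHP, a cap-binding repressor of translation, had 34 bases and signals of 26.5 and 18.7. Both replicates had a call at these 3 runs, and in each list all 3 signals lay below the median of the runs with a summit.

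At 4 other long runs a single replicate had the call. The run of T48, which encodes a membrane protein of the folding mesoderm, had 33 bases and a call of 42.5 in replicate 1, which passed there, and none in replicate 2. The run of fne, an RNA-binding protein of neurons, had 47 bases in a promoter and a call of 11.97 in replicate 1 only. CG42594 had 13.02 in replicate 1 only and CG15472 had 8.09 in replicate 2 only, each at 32 bases. Zdhhc8, a palmitoyltransferase, also with 32 bases, had a call in both replicates, of 9.09 and 2.72. For comparison, the intronic run of CHES-1-like, a forkhead factor, with 52 bases and a summit had 373.3 and 264.1, and its coding run of 65 bases had 73.8 and 50.9. The 44-base run of pum, a translational repressor, had 264.0 and 204.4.

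Beyond the calls absent from the thresholded list, 6 runs had the strongest calls below it and were picked after their values were seen. They lay at fs(1)h, a BET bromodomain protein, CG42258, dnt, a Ryk-type receptor, Raf, the MAP kinase kinase kinase, and eIF5B, and outside the body of CG3556, the gene with the nearest start. Most were close to a conservative summit beyond the limit. It was 138 bp away at CG42258, 152 bp at CG3556, 213 bp at Raf and 257 bp at eIF5B, but 815 bp at fs(1)h and 2472 bp at dnt. The signals in the conservative ranked list were 87.8 to 126.2. In the replicate 1 list they were 53.0 to 81.0, all below its median of 106.2 at runs with a summit, and in the replicate 2 list 11.4 to 23.7, all below its median of 81.4. All 6 runs had a summit in the thresholded list of replicate 1, 5 in the pooled one and 3, at fs(1)h, CG42258 and Raf, in that of replicate 2.

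No ranked call in any of the 4 lists was found at 867 of the 2155 runs, or 40.2% (38.2 to 42.3). Their median length was 13 bases and their median flanking GC 42.0%. Repeated flanks made up 151 of them, or 17.4%, against 15 of the 1288 with some call, or 1.16%. The longest were CG13229 with 34 bases and pyr with 32, then sr, CARPA and Hr4 with 30, 29 and 28. At least 95.5% of the 31-base words around these 5 occurred once in the genome. The nearest summit was 137 bp from the Hr4 run, 173 bp from pyr and 304 bp from sr, but 11275 bp from CG13229 and 70177 bp from CARPA.

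Distance to the nearest conservative summit is given as a description. The list held 5692 summits on the 133880608 bases of the 6 arms. The share of all bases at each distance was not counted, so no distance is called large for these runs. The nearest summit was over 5 kb away for 1459 runs, or 67.7%, and 1 to 5 kb away for 425. A further 133 runs had a summit beyond 100 bp but within 250 bp, 60 had one farther off but within 500 bp, and 78 beyond that but within 1 kb, and 70 overlapped a peak interval although its summit was farther off. Just outside the limit lay runs at Pdp1 at 101 bp and Prosap and Dfd at 102 bp. Just inside it lay runs at Achl and spi at 99 bp and Blimp-1 at 98 bp. The run at Prosap had calls of 46.0 in replicate 1 and 35.7 in replicate 2 that passed in both replicate lists, which held for 7 of the 2155.

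Of 1413 genes whose body holds a run, 975 had a run without a summit and 706 a run with one. Both kinds were counted in 268 genes, and 707 had only runs without a summit counted. Over all runs 64.2% had no summit, so these gene counts are a description. The genes with most such runs were long. Myo81F, a myosin gene in pericentric heterochromatin, had 15 and none with a summit, in 1966 kb, and none of the 15 had any ranked call. The gene mamo, which encodes a zinc finger protein of the germ line, had 15 and 1 with a summit in 144.4 kb, and Pzl, a Piezo-type channel gene, had 12 and 0 in 709.4 kb. Eip93F, an ecdysone-induced transcription factor, had 10 and 2, Rim had 9 and 0 in 43.8 kb, and kirre, an adhesion protein of muscle founder cells, had 9 and 1. A tie at 8 followed, with CG15465 at 8 and 2, Hr4, a nuclear receptor, at 8 and 3, Pdp1, a bZIP factor, at 8 and 1, and Sh, a potassium channel, at 8 and 0.

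**Figure D5:**
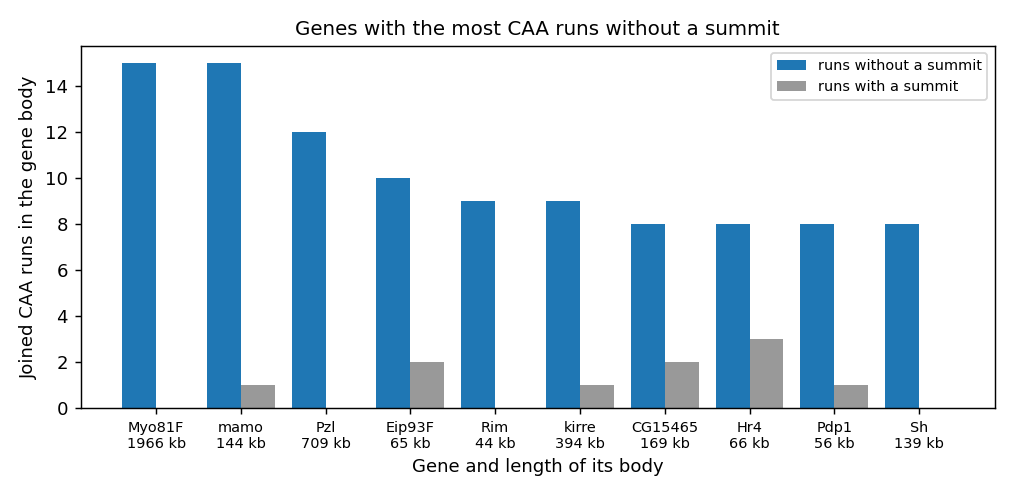
Number of joined CAA runs in the body of the 10 genes with 8 or more runs without a summit, with the length of each gene in kb under its name. Blue bars count runs without a summit and grey bars runs with one; Myo81F, Pzl, Rim and Sh have no run with a summit.

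Gene lists were counted over the body and 500 bp upstream, without a test. Of all 13945 protein-coding genes, 7.71% had a run without a summit and 5.81% one with a summit, at a median length of 2.17 kb. The listed genes are longer, so their shares are not comparable at equal length. Of 16 ion channel genes, 10 had a run without a summit and 2 one with a summit, with 41 and 2 runs and a median length of 54.2 kb. Among them were Sh, the Shaker potassium channel, with 9 and 0 by this count, and Rdl, a GABA-gated chloride channel, with 7 and 0. SK, a calcium-activated potassium channel, had 7 and 0, and para, the voltage-gated sodium channel, had 6 and 1. Of 12 ecdysone pathway genes, at a similar median of 55.7 kb, 9 had a run without a summit and 6 one with, with 37 and 20 runs. There br, a zinc finger factor, had 6 and 0 and Eip74EF, an ETS factor, had 4 and 6.

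Other lists held both kinds. Of 9 Notch pathway genes, 3 had a run without a summit and 5 one with, with 10 and 11 runs, and mam, the coactivator Mastermind, had 7 and 4. Of 14 EGFR and Hippo genes, 9 and 7 did, with 12 runs of each kind. There kibra, an upstream Hippo regulator, had 3 and 1 and pnt, an ETS factor, had 1 and 5. Of 14 Polycomb and trithorax genes, 4 and 7 did, with 9 and 11 runs, and kis, a chromatin remodeller, had 3 of each kind. Of 22 axon guidance and neural adhesion genes, 11 and 9 did, with 19 and 12 runs, and Nrg, an adhesion protein, had 4 and 2. Of 8 Hox genes, 4 and 2 did, and pb had 3 and 0. Of 11 muscle genes, 3 and 2 did, and Tm1, a tropomyosin, had 3 and 1. Of 18 segmentation genes, 2 had a run without a summit and 2 one with, at a median length of 3.92 kb, and run and ptc had 1 and 0 each.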

How the data were processed

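The data were lists of ChIP-seq peaks on dm6 from 2 biological replicates of 1 group. The authors deposited a signal value per call, whose scale no header or label states, and, in the deposited ranked lists, −log10 of the global IDR. Thresholded calls had at least 2, an IDR of at most 0.01. No label or header used here names the aligner, the peak caller or the depth. The conservative list, so named by the authors, and a further list, called pooled here, were both made from the alignments of both replicates, per the text file deposited with the series. A summit was the deposited summit position of a call. All peaks of the 6 arms lay within the arm lengths of the RefSeq release 6 assembly, from which repeats and sequences were read. Positions came from the Ensembl release 115 annotation, without transposable elements, with promoters first, then UTRs, then coding sequence, introns and the rest.

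Summit presence was modelled by logistic regression (statsmodels 0.14.6, Python 3.11.15, pandas 2.3.3, scipy 1.17.1, numpy 2.4.6), with 2-sided Wald tests and Benjamini-Hochberg adjustment over 12 terms, or over 12 motifs, at 0.05. Runs are regions of the same libraries and not replicates, so p-values and exact 95% intervals cover the spread between runs, not between embryos. The model was tested on outcomes simulated independently for each run from set odds ratios. Those outcomes held no dependence within windows, so they could not test the clustering of the standard errors. Alternatives changed the distance, list, IDR, run length, joining, promoter width, clustering and covariates. Plots used matplotlib 3.10.9. The members, lists and motifs were chosen with earlier results of these data known. Named were the 10 longest runs without a summit, the 8 with the strongest conservative ranked call and the 5 longest with no call. Also named were the 5 longest of the coding sequence class, the 5 longest with a summit and the 8 genes with most runs and those tied with them. Up to 4 genes per list and the 3 runs nearest to the limit on either side were named too. The gene of a run is the shortest protein-coding gene that holds it, or else the one with the nearest start.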

Additional observations from a re-analysis of the deposited data

Results flagged for a closer look

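A signal outside the thresholded lists was found at 27 of the runs without a summit. Each lies within 100 bp of a conservative ranked call that passed the IDR threshold and is absent from the copy of the thresholded list used here, whose completeness is not known, and 23 of the 27 were on arm 3R. Their absence has no reason recorded in the labels, and none was tested.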

How the results depend on the processing

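The share of runs without a summit was 64.2%. It was 67.8% with summits within 50 bp, 60.2% within 250 bp, 62.4% by overlap with a peak interval, 73.0% at an IDR of at most 0.001, 55.6% for runs of 5 or more units, 62.3% without joining, 62.4% without repeated flanks, and 62.4% without chromosome 4 and the 6 Mb next to the centromere ends, an alternative chosen after seeing the data. Using the list of 1 replicate, it ranged from 66.9% to 71.8%. The intergenic odds ratio lost its call at 50 bp (0.843), with 5 or more units (0.876) and without joining (0.760). It also lost it with only the position classes in the model (0.772) and away from centromeres (0.792). The CAG ratio lost it with 5 or more units (1.20), where fewer runs were tested, and the coding ratio with only the position classes (0.830). The strand ratio passed without repeated flanks (0.736), unclustered (0.773) and alone (0.762). It did not pass under the other alternatives. It was 0.973 with the replicate 1 list, 0.853 with the replicate 2 list and 0.85 with the pooled list. The count of motifs was 3 to 5 with 1 replicate, 3 at the stricter IDR, 1 with 5 or more units, 3 within 50 bp and 2 away from centromeres. The causes were not tested. No result reversed. Length, flanking repeat, promoter, X and repeated flanks kept their call under every alternative run for them. No paired analysis was possible because there was only 1 group. Read depth is unknown, so a missing summit does not show that CG4360 was absent.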
